A study of Sus scrofa with 12 samples.

Results

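The interaction of lysophosphatidylcholine (LPC) with dantrolene was examined in paVICs, the interstitial cells of pig aortic valve leaflets, by asking for which genes the effect of both agents together departed from the sum of their separate effects. All 12 of the 12 libraries of the study entered this comparison, 3 in each of 4 groups. The groups were a vehicle control (VEH), 10 μM LPC, 60 μM dantrolene (DAN), and LPC + dantrolene (LPCDAN), each treated for 24 h. Every group, controls included, received 0.6% DMSO and 0.1% ethanol in low-serum medium. The study ran 3 experiments on separate primary isolations from pooled hearts whose valve endothelium was swabbed off, each with 1 replicate per group. Replicate numbers 1, 2, and 3 were taken here as isolations 1, 2, and 3, which the labels do not state. The labels give neither strain nor age of the animals.

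LPC is a lysophospholipid carried by oxidized lipoproteins, and it disturbs membranes, raises cytosolic calcium, and promotes calcific nodules in cultures of valve interstitial cells. Dantrolene blocks ryanodine receptors, the channels that release calcium from the endoplasmic reticulum. Additivity here means that the log2 effects of the agents add up, so that their folds multiply. The interaction of a gene was therefore the log2 effect of LPC with dantrolene present less the log2 effect of LPC without dantrolene. A value of 0 is additive, a negative value lies below additivity, and a positive value lies above it.

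Between 16489684 and 24105935 counts per library fell on genes, and a floor of 3 counts, which reflects counting error alone, was 0.114 to 0.186 CPM (counts scaled to a common library size). Markers of valve interstitial cells and fibroblasts summed to between 44600 and 81800 CPM in the 12 libraries. Those of endothelial cells summed to 124 to 200 CPM and those of leukocytes to 10.6 to 26.2 CPM, with PTPRC, LYZ, CD163, CD3E, and MS4A1 at 0 counts in every library. Smooth muscle markers, many of which activated interstitial cells also express, summed to between 1150 and 5170 CPM. The LPCDAN library of isolation 2 stood apart, with a mean correlation of 0.909 with its own group on log2 CPM, against 0.937 to 0.974 in the other 11 libraries. Its TMM scaling factor of 0.863 lay below the 0.879 to 0.918 of the vehicle libraries, while the other treated libraries had factors of 0.923 to 1.15. In bulk samples, fewer cells of a type and less RNA per cell cannot be told apart.

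Departures from additivity were almost all downward. Of 13216 genes tested, 593 (4.49%) lay significantly below additivity and 21 (0.159%) above it by edgeR's quasi-likelihood test at a Benjamini-Hochberg adjusted p under 0.05. At an unadjusted p under 0.05 the numbers were 1542 (11.7%) below and 377 (2.85%) above. With the isolation as a block in the fit, 277 genes were called below and 3 above, all of them among the genes called without the block. The median interaction of all genes was 0.18 with TMM scaling and -0.04 on total counts alone, a shift against which each value should be read. On total counts alone 232 genes were called below and 2 above. All 593 genes below kept a negative sign and all 21 genes above kept a positive sign on total counts, with RLE size factors, with DESeq2, and under the block. The plot of observed against summed effects shows that the genes below additivity lie at positive sums, and LPC alone raised 585 and dantrolene alone 545 of the 593 past the same threshold.

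**Figure D1:**
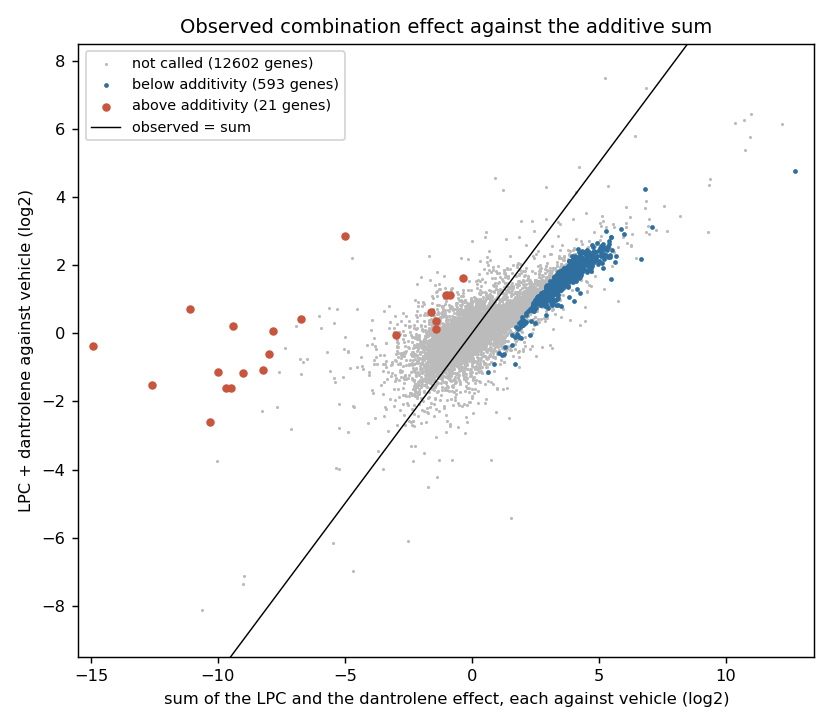
Each point is a gene, with the sum of its LPC and dantrolene effects against vehicle on the x axis and its LPC + dantrolene effect against vehicle on the y axis, both in log2. The 593 genes below additivity lie under the diagonal at positive sums, and the 21 genes above it lie over the diagonal at negative sums.

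The 4 simple effects showed the same picture. LPC alone gave 1148 called genes (8.69%) against vehicle, 1129 of them higher, whereas LPC on top of dantrolene gave 3 (0.0227%). Dantrolene alone gave 1163 called genes (8.8%), 997 of them higher, and on top of LPC it gave 67 (0.507%). The single-agent effects and the interaction share the vehicle libraries, so a low vehicle level enters all of them. Counts of calls do not themselves test a difference between effects, which only the interaction does.

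Among the 593 genes below additivity, 591 had positive estimates for both single agents. Their median effect was 1.91 (log2) for LPC, 1.71 for dantrolene, and 1.61 for LPC + dantrolene, where the medians of the single agents would sum to far more. LPC added to dantrolene moved them by a median of -0.14. For 429 of these genes the combination lay between vehicle and the lower of the single agents, for 117 it lay between the single agents, for 33 it lay over both, and for 14 it lay under vehicle. This placement of the fitted group means rested on the LPCDAN library of isolation 2. Within isolations 1, 2, and 3 the combination lay under both single agents in 20, 592, and 53 of the 593 genes, and over both in 251, 0, and 410. On means of log2 CPM it lay under both in 506 genes, and in 55 when that library was left out of its group, an alternative chosen after the data were seen. On a linear CPM scale, where differences rather than folds are added, all 593 also lay below the sum.

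The isolations contributed very unequally. The median interaction of the 593 genes was -0.79 in isolation 1, -3.99 in isolation 2, and -1.68 in isolation 3, and isolation 2 gave the largest departure in 590 of them (99.5%). Over all genes tested, isolation 2 was the largest in 70.1%. The interaction was negative in every isolation in 580 of the 593 genes, a direction that their choice on the same libraries largely fixed. The plot by library shows where this came from. Relative to each gene's mean over the 12 libraries, the median level of the 593 genes was -0.88, -1.26, and -1.53 in the vehicle libraries of isolations 1, 2, and 3. It was 0.73, 0.79, and 0.54 with LPC, and -0.15, 0.98, and 0.37 with dantrolene. With LPC + dantrolene it was 0.69 and 0.78 in isolations 1 and 3, about the LPC level, but -1.0 in isolation 2, close to vehicle. Isolation 2 thus held both the highest dantrolene library and the only combination library near vehicle.

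**Figure D2:**
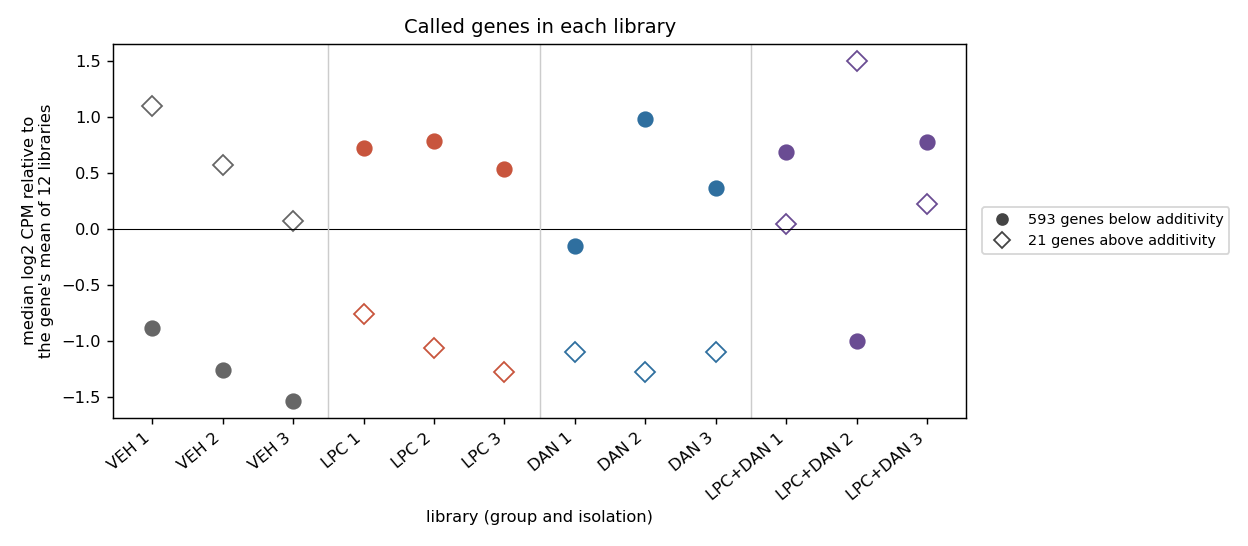
For each of the 12 libraries on the x axis, the y axis gives the median log2 CPM of the called genes relative to each gene's mean over all libraries, with filled circles for the 593 genes below additivity and open diamonds for the 21 above it. The vehicle libraries and the LPCDAN library of isolation 2 lie between -0.88 and -1.53 for the genes below, while the other 8 libraries lie between -0.15 and 0.98.

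All 3 vehicle libraries lay below all 9 treated libraries in 240 of the 593 genes (40.5%), against 358 genes (2.71%) of all those tested. The choice of the 593 genes on the same libraries favours a low vehicle level, so this excess was partly fixed by that choice. Because the vehicle is the common base of both single-agent effects, a low vehicle level and a combination that falls short of the sum cannot be told apart by the interaction alone. The genes below additivity also spanned long stretches of the genome. Their median genomic span, exons and introns together, was 74.0 kb (550 of 593 matched in RefSeq on Sscrofa11.1), against 30.5 kb over all genes tested (10811 matched). TMM factors, gene span, and the library of isolation 2 moved with this result, and their part in it was not tested.

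CCDC186, a coiled-coil protein of dense-core vesicle maturation, had the smallest p below additivity (ENSSSCG00000010648, chr14:124468954-124521145, Sscrofa11.1). In isolations 1, 2, and 3 it measured 4.39, 2.63, and 3.603 CPM with vehicle, 24.3, 32.8, and 27.6 CPM with LPC, 11.7, 43.2, and 14.5 CPM with dantrolene, and 18.9, 9.44, and 23.3 CPM with LPC + dantrolene. No vehicle library reached any treated library, and no combination library reached the lowest LPC library. Multiplying the folds of the group means would give 185 CPM, and the observed mean was 17.2 ± 7.09 CPM (SD, n = 3). The interaction was -3.42 ± 0.53 (log2, SE, edgeR adjusted p = 0.000112), and by isolation it was -1.75, -5.77, and -2.21.

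STAG2, a subunit of the cohesin ring that holds sister chromatids and chromatin loops together, behaved alike (chrX:101476117-101617405). Its levels were 7.54, 7.07, and 7.497 CPM with vehicle, 51.8, 63.7, and 41.1 CPM with LPC, 25.1, 85.3, and 34.5 CPM with dantrolene, and 44.9, 16.6, and 58.9 CPM with LPC + dantrolene. The LPC and combination groups overlapped, and every treated library exceeded every vehicle library. The interaction was -3.09 ± 0.52 (edgeR adjusted p = 0.000174), with -1.93, -5.50, and -1.67 in the isolations.

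NEXN, an actin-filament binding protein, and SEMA3C, a secreted semaphorin that guides cells of the outflow tract, were lower with the combination than with LPC in every library. NEXN (chr6:135315000-135382911) measured 58.6, 48.6, and 56.0 CPM with vehicle, 235, 312, and 338 CPM with LPC, 96.9, 347, and 136 CPM with dantrolene, and 177, 64.5, and 127 CPM with LPC + dantrolene. Its dantrolene libraries spread from 96.9 CPM, within the range of the combination, to above the highest LPC library, and the interaction was -3.09 ± 0.50 (edgeR adjusted p = 0.000159). SEMA3C (chr9:99114649-99432683) measured 32.2, 28.4, and 28.2 CPM with vehicle and 118, 130, and 142 CPM with LPC. It measured 64.9, 136, and 89.3 CPM with dantrolene and 95.4, 30.8, and 60.9 CPM with the combination. Its interaction was -2.77 ± 0.48 (edgeR adjusted p = 0.000208).

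The other 8 of the 12 genes with the smallest p were SAMD9, SMC2, EEA1, ARHGAP5, PIK3C2A, ATRX, USP53, and NIPBL, with interactions from -3.16 (SMC2) to -2.77 (USP53). SMC2 is a core subunit of condensin, ATRX is a chromatin remodeler, and NIPBL loads cohesin onto DNA. EEA1 tethers early endosomes, and PIK3C2A is a lipid kinase of the endocytic pathway. SAMD9 is an interferon-responsive antiviral protein. All 12 stayed called with the isolation as a block, on total counts alone, with DESeq2, without the LPCDAN library of isolation 2, and without the whole of isolation 2. The batch adjustment had been made with that LPCDAN library included, so leaving it out does not undo its part in the adjustment. Without isolation 3 SEMA3C was not called (edgeR adjusted p = 0.104) and the other 11 were. Leaving out the LPC library of isolation 2 kept 3 of the 12 called, CCDC186, NEXN, and SEMA3C, each at an adjusted p of 0.0489, while STAG2 gave 0.0679.

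**Figure D3:**
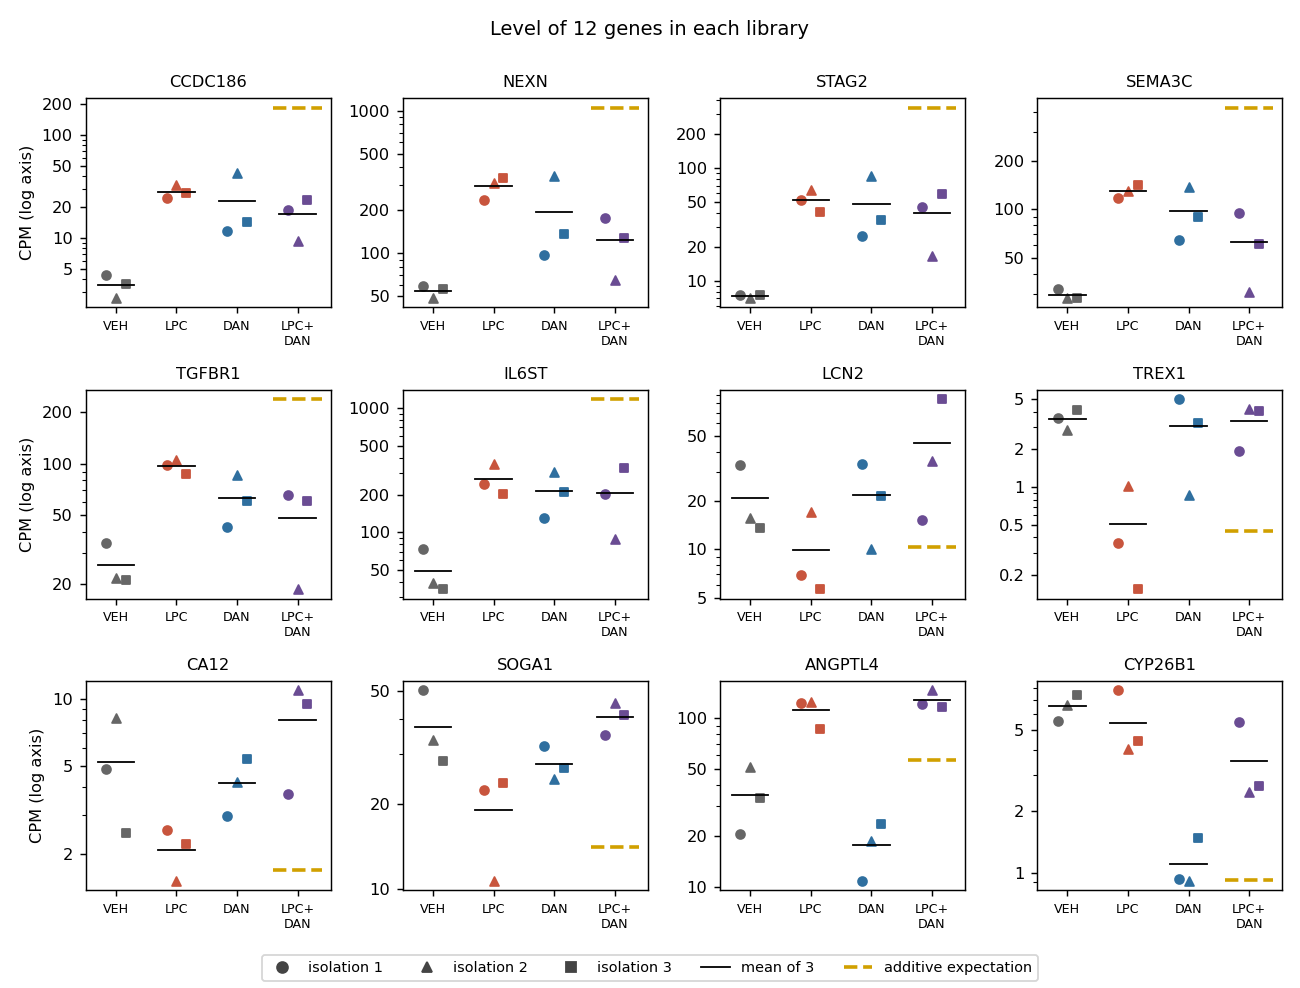
CPM on a log axis for 12 genes in the vehicle (VEH), LPC, dantrolene (DAN), and LPC + dantrolene groups on the x axis, with a marker shape per isolation, a black bar at the mean of 3, and a dashed line at the additive expectation, the product of the group mean folds. The first 6 genes lie below the dashed line in all 3 combination libraries, and LCN2, TREX1, CA12, SOGA1, ANGPTL4, and CYP26B1 lie above it, ANGPTL4 and CYP26B1 without passing the test.

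By function, among the lists examined, the genes below additivity were densest in those of large coiled-coil and chromosome-structure genes. These lists were drawn up with earlier results of these data known. They hold genes that the study had named from the same libraries, such as EEA1, KTN1, VPS13C, STAG2, SMC3, and PCM1. Their shares are therefore partly fixed by that choice and are given as a description. Of the 26 tested golgins, coiled-coil tethers, and VPS13 lipid-transfer proteins, which hold vesicles and organelle membranes near each other, 14 were called below (53.8%, against 4.49% of all genes) and none above, with a median interaction of -1.77 against 0.18 over all genes. Besides CCDC186 and EEA1 these were TRIP11 (-2.82), VPS13C (-2.79), KTN1 (-2.76), GOLGA4 (-2.68), GOLGB1 (-2.67), GCC2 (-2.58), VPS13A (-2.49), TMF1 (-2.25), SNX13 (-2.21), GORAB (-1.91), VPS13B (-1.80), and TRAPPC8 (-1.73). KTN1, kinectin, anchors kinesin to the endoplasmic reticulum, and it measured 21.6, 16.2, and 11.2 CPM with vehicle, 80.0, 124, and 94.8 CPM with LPC, 48.5, 177, and 81.7 CPM with dantrolene, and 82.7, 47.8, and 147 CPM with the combination. Its combination and LPC groups overlapped, and every vehicle library lay lowest. Under the block 10 of the 14 stayed called, and with DESeq2 13 did. Without the LPC or the dantrolene library of isolation 2 this number was 1 or 3.

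Of 47 cohesin and chromatin regulators, 18 were called below (38.3%), with a median of -1.31. Those of the SMC rings were SMC2, SMC3 (-2.60), SMC4 (-2.21), and SMC6 (-2.13), together with the cohesin subunits STAG1 (-2.51) and STAG2 and the cohesin-bound PDS5B (-2.01) and PDS5A (-1.83). RAD21, which closes the cohesin ring, did not pass the test (-1.49, edgeR adjusted p = 0.0538, and 0.136 with the block). Chromatin remodelers and readers among the rest were CHD9 (-2.61), BAZ2B (-2.41), ARID4A (-2.29), SMARCA5 (-2.20), CHD1 (-2.15), BRWD3 (-2.09), PHF3 (-1.72), and ARID4B (-1.69), besides ATRX, and the cohesin loader NIPBL was called as well. Under the block 12 of the 18 stayed called, and with DESeq2 14 did. Leaving out the LPC library of isolation 2 left 0 of them, and leaving out the dantrolene library left 4.

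Centrosome and kinesin genes followed, with 10 of 41 called below (24.4%) and a median of -1.01. KIF20B (-3.88), a mitotic kinesin, and KIF5B (-2.31) and KIF3A (-1.85), motors of cargo transport, stood beside the centriolar and ciliary genes CEP162 (-2.84), NIN (-2.54), PCM1 (-2.51), AKAP9 (-2.34), CEP290 (-2.22), CEP83 (-1.79), and CEP120 (-1.73). The block kept 4 of the 10, DESeq2 also kept 4, and leaving out the LPC or the dantrolene library of isolation 2 kept 0 in each case. By isolation the medians were -0.36, -3.66, and -1.30 for the golgin list, -0.41, -2.98, and -1.05 for the cohesin and chromatin list, and -0.16, -2.44, and -0.86 for the centrosome list. All 3 lists were therefore negative in each isolation and several times larger in isolation 2. Across the cell cycle list, by contrast, 4 of 50 were called below (8%, against 4.49% of all genes) and the median was 0.11.

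**Figure D4:**
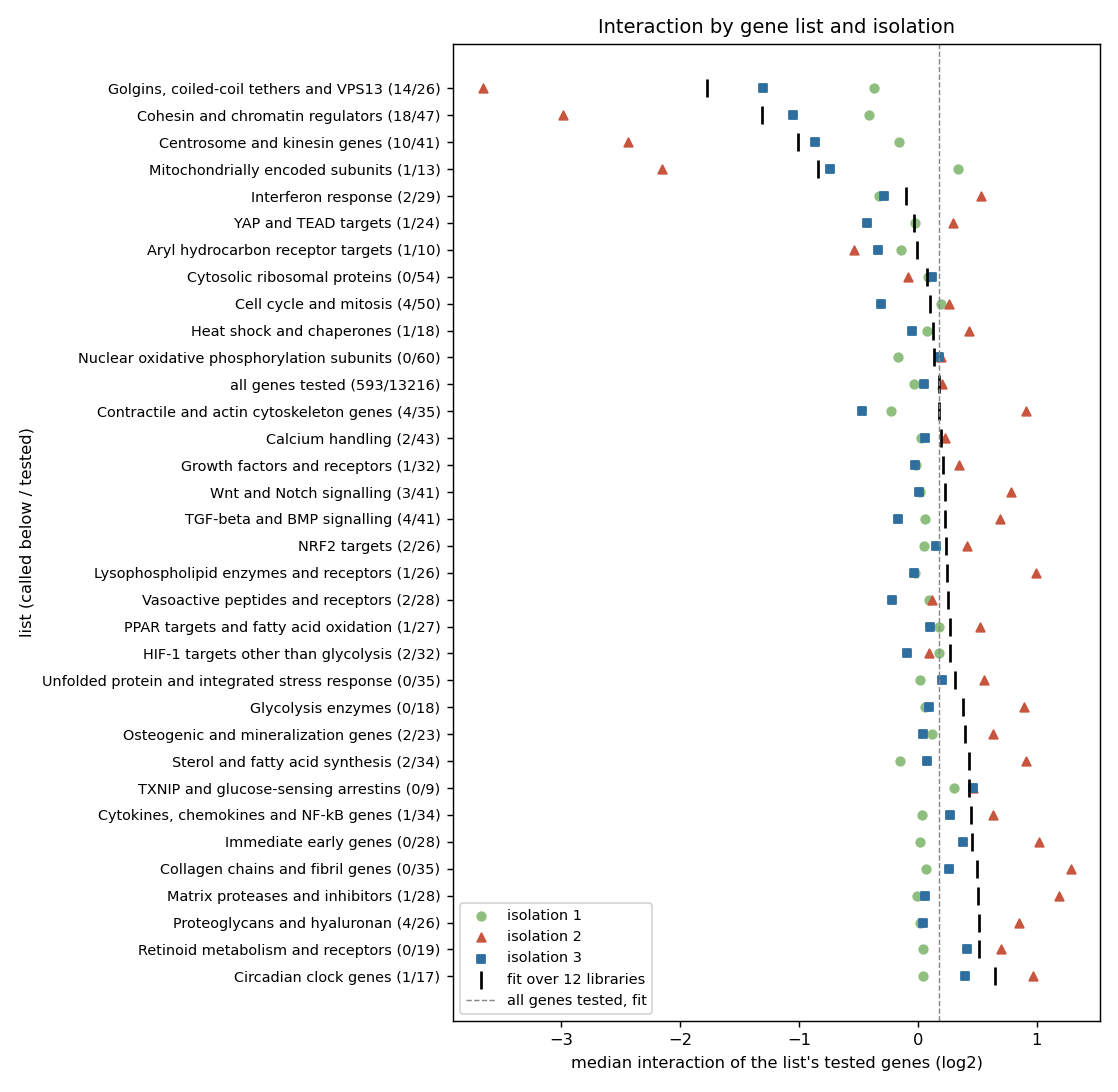
Median interaction (log2, x axis) of the tested genes of each function list (y axis, with the number called below over the number tested), from the fit over 12 libraries (black bars) and within isolations 1, 2, and 3 (markers), with the median of all genes as a dashed line. The golgin, cohesin and chromatin, centrosome, and mitochondrially encoded lists lie to the left, from -1.77 to -0.84, and isolation 2 lies furthest out in each of them.

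Mitochondrially encoded subunits of the respiratory chain were the other list with a clearly negative median (-0.84), and all 13 of them were negative. ND5 alone passed the test (-1.89 ± 0.52, edgeR adjusted p = 0.0171, and 0.129 with the block), while ND2 did not (-1.47, adjusted p = 0.0708). ND5 measured 665, 471, and 345 CPM with vehicle, 909, 2231, and 1798 CPM with LPC, 908, 3108, and 1178 CPM with dantrolene, and 967, 1343, and 2381 CPM with LPC + dantrolene. Every vehicle library lay below every treated library, and the treated groups overlapped. ND5 was not called without the LPC or the dantrolene library of isolation 2, nor with DESeq2 (adjusted p = 0.221). In isolation 1 the list's median was 0.34, in isolation 2 it was -2.15, and in isolation 3 it was -0.74. Of 60 nuclear-encoded subunits of the same chain, 0 were called, with a median of 0.13, and 3 were under an unadjusted p of 0.05, 2 above additivity and 1 below. Of 54 cytosolic ribosomal proteins 0 were called, none was under an unadjusted p of 0.05, and the median was 0.08.

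Cell cycle genes called below additivity were CENPF (-3.08), TOP2A (-2.72), CENPE (-2.50), and ANLN (-2.16). ANLN, anillin of the cleavage furrow, measured 12.1, 13.0, and 12.3 CPM with vehicle, 47.8, 33.6, and 59.2 CPM with LPC, 11.9, 28.8, and 14.7 CPM with dantrolene, and 23.4, 8.88, and 14.3 CPM with LPC + dantrolene. All LPC libraries lay above all other libraries, and dantrolene alone did not pass against vehicle (0.57, edgeR adjusted p = 0.472). TOP2A, the topoisomerase of dividing cells, measured 3.77, 2.22, and 1.45 CPM with vehicle, 24.9, 17.4, and 11.9 CPM with LPC, 0.0547, 9.26, and 2.46 CPM with dantrolene, and 8.42, 0, and 4.66 CPM with the combination. Its value was 3.05 in isolation 1 and negative in the other isolations, so the isolations disagreed in direction. Under the block ANLN stayed called (adjusted p = 0.0319), while CENPE, CENPF, and TOP2A gave adjusted p-values of 0.0675, 0.133, and 0.230. DESeq2 called ANLN and CENPE, and gave CENPF and TOP2A adjusted p-values of 0.403 and 0.609. None of the 4 was called without the LPC or without the dantrolene library of isolation 2.

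Contractile and actin cytoskeleton genes had 4 of 35 called below (11.4%, against 4.49% of all genes) and a median of 0.18, that of all genes. ROCK1 (-2.37) and ROCK2 (-2.45), kinases that drive actomyosin contraction, were raised by both agents, and all 4 of these genes stayed called under the block. DESeq2 called 3 of the 4 and gave ROCK2 an adjusted p of 0.0713. CALD1, caldesmon, which binds actin and restrains myosin, measured 1613, 1415, and 1440 CPM with vehicle, 3324, 3378, and 3597 CPM with LPC, 1923, 2639, and 2069 CPM with dantrolene, and 2359, 605, and 1451 CPM with LPC + dantrolene. The combination spanned from below vehicle to the dantrolene level and never reached LPC, and the interaction was -1.79 ± 0.48 (edgeR adjusted p = 0.0143). SYNPO2, an actin-bundling protein of smooth muscle, gave -1.69. The fits that left out the LPC or the dantrolene library of isolation 2 called 0 of these 4 genes. ACTA2, the smooth muscle actin that marks activated interstitial cells, did not pass (0.50, 95% interval -0.45 to 1.46, adjusted p = 0.673). Its levels with LPC + dantrolene were 8982, 23558, and 6248 CPM, so the library of isolation 2 was the highest of all 12 for this gene and set the sign of the estimate.

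Receptors and transducers of TGF-beta and BMP signalling, a pathway of valve fibrosis and calcification, had 4 of 41 called below (9.76%, against 4.49% of all genes) and a list median of 0.23, no lower than the 0.18 of all genes. They were the type I receptors TGFBR1 (-2.30) and BMPR1A (-2.14), the transducer SMAD5 (-1.88), and SKIL (-2.27), a repressor of SMAD activity. TGFBR1 measured 34.5, 21.6, and 20.98 CPM with vehicle, 98.7, 105, and 87.4 CPM with LPC, 42.5, 86.0, and 60.6 CPM with dantrolene, and 65.6, 18.5, and 60.6 CPM with LPC + dantrolene. No combination or dantrolene library reached the lowest LPC library, and the combination of isolation 2 lay below all vehicle libraries. TGFBR1, BMPR1A, and SKIL stayed called under the block, and SMAD5 gave an adjusted p of 0.0539. In the Wnt and Notch list 3 of 41 (7.32%) were called below at a list median of 0.23, namely APC (-2.39), a scaffold of beta-catenin breakdown, the Wnt co-receptor LRP6 (-1.69), and the Notch transcription factor RBPJ (-1.68). APC alone of these stayed called under the block, with adjusted p-values of 0.0740 for LRP6 and 0.0794 for RBPJ. With DESeq2 LRP6 alone was called (adjusted p = 0.0424), and APC gave an adjusted p of 0.0723. The 3 Wnt and Notch genes and the 4 TGF-beta and BMP genes all lost their call without the LPC or without the dantrolene library of isolation 2.

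Some small leucine-rich proteoglycans of the valve matrix were also called. Of 26 proteoglycan and hyaluronan genes 4 (15.4%, against 4.49% of all genes) were called below, OGN (-2.28), OMD (-2.19), ASPN (-2.07), and LUM (-1.58). The list's median was 0.51, higher than the 0.18 of all genes. OGN, OMD, and ASPN lie close together at chr3:42116521-42192902, so these 3 calls come from 1 stretch of the genome. ASPN, asporin, which binds collagen and TGF-beta, measured 133, 41.2, and 83.2 CPM with vehicle, 130, 335, and 278 CPM with LPC, 128, 110, and 105 CPM with dantrolene, and 94.7, 70.0, and 69.8 CPM with LPC + dantrolene. The combination lay below every LPC and every dantrolene library and within the vehicle range. LUM, lumican, measured 140, 70.9, and 115 CPM with vehicle, 180, 413, and 235 CPM with LPC, 336, 366, and 275 CPM with dantrolene, and 340, 160, and 332 CPM with the combination, where the treated groups overlapped. Under the block ASPN and OMD stayed called, and OGN and LUM gave adjusted p-values of 0.0850 and 0.0978. DESeq2 called ASPN and LUM, and gave OGN and OMD adjusted p-values of 0.0564 and 0.0919. The 35 collagen and fibril genes gave 0 calls at a median of 0.50, with 3 below and 2 above at an unadjusted p under 0.05. OGN and OMD were also the 2 of 23 osteogenic and mineralization genes called (8.7%). No proteoglycan gene was called once the LPC or the dantrolene library of isolation 2 was left out.

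IL6ST, the gp130 chain shared by receptors of the interleukin-6 family, was the 1 gene called below among 34 cytokine, chemokine, and NF-kB genes (2.94%), a share under the 4.49% of all genes. It measured 74.0, 38.9, and 34.8 CPM with vehicle, 245, 358, and 205 CPM with LPC, 131, 307, and 210 CPM with dantrolene, and 202, 89.1, and 327 CPM with LPC + dantrolene. All treated libraries exceeded all vehicle libraries, and the interaction was -2.52 ± 0.50 (edgeR adjusted p = 0.000995, and 0.0272 with the block). Without the LPC library of isolation 2, or without the dantrolene library, it was not called. Of 29 interferon response genes SAMD9 and IFIT5 (-1.98, adjusted p = 0.0613 with the block) lay below additivity (6.9%) and TREX1 lay above it.

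Calcium genes, which the target of dantrolene brings into question, had 2 of 43 called below, a share of the list (4.65%) close to the 4.49% of all genes. TRPM7 (-2.21), a cation channel fused to a kinase, and CACNA2D1 (-2.03), an auxiliary subunit of voltage-gated calcium channels, were raised by both agents, and both stayed called under the block but not without the LPC or the dantrolene library of isolation 2. RYR3, a ryanodine receptor gene, gave -0.19 (95% interval -1.15 to 0.76, adjusted p = 0.870). Among 28 vasoactive genes PDE5A (-1.90), which breaks down cyclic GMP, and NPR3 (-1.66), the clearance receptor of natriuretic peptides, were called, 7.14% of the list against 4.49% of all genes at a list median of 0.26. NPR3 measured 31.1, 22.7, and 29.7 CPM with vehicle, 67.7, 68.4, and 111 CPM with LPC, 17.0, 29.5, and 13.3 CPM with dantrolene, and 27.9, 10.9, and 17.0 CPM with the combination. LPC raised it by 1.56 (log2, adjusted p = 0.000688) and its LPC libraries lay above all others. The block gave adjusted p-values of 0.0427 for PDE5A and 0.0806 for NPR3. Among 26 lysophospholipid enzymes and receptors the 1 gene called (3.85%) was PLA2G4A (-1.67, adjusted p = 0.0944 with the block), the cytosolic phospholipase that frees arachidonic acid. These 3 calls too were lost without the LPC or the dantrolene library of isolation 2.

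In the sterol, PPAR, glycolysis, HIF-1, NRF2, and unfolded protein response lists, the shares called below ran from 0% to 7.69%, around the 4.49% of all genes, and the list medians lay at 0.24 or higher. SLC7A11, the cystine importer, was 1 of 2 genes called among 26 NRF2 targets (-2.25, edgeR adjusted p = 0.00369, and 0.0382 with the block), and it measured 13.5, 11.7, and 7.21 CPM with vehicle, 59.9, 52.2, and 40.2 CPM with LPC, 25.7, 81.1, and 65.9 CPM with dantrolene, and 74.4, 19.1, and 76.2 CPM with LPC + dantrolene. GSTA1 was the other, but its vehicle libraries held 0 counts and no other group mean exceeded 2.19 CPM, so its fitted value has no size. DESeq2 called neither SLC7A11 (adjusted p = 0.0912) nor GSTA1 (adjusted p = 0.262). NFE2L2, which encodes NRF2 itself, did not pass (-1.50, adjusted p = 0.0531). Sterol genes called were STARD4 (-1.96), a cholesterol carrier, and SC5D (-1.64), an enzyme late in cholesterol synthesis, 2 of 34, with adjusted p-values under the block of 0.0418 and 0.0824. ACADM (-1.83), of medium-chain fatty acid oxidation, was 1 of 27 PPAR and fatty acid oxidation genes and stayed called under the block. Of 10 tested aryl hydrocarbon receptor genes 1 was called (10%, against 4.49% of all genes), the receptor AHR itself (-1.70, adjusted p = 0.0806 with the block). AHR measured 62.6 ± 6.86 CPM (SD, n = 3) with LPC, 58.6 ± 25.6 CPM with dantrolene, and 49.8 ± 20.8 CPM with both, from 22.7 ± 2.56 CPM with vehicle. HIF-1 targets other than glycolysis enzymes gave PLOD2 (-1.79) and ESM1 (-1.78) below and CA12 above, 3 of 32. Glycolysis enzymes (18 tested) and unfolded protein response genes (35 tested) gave 0 calls, each with 0 above and 1 below at an unadjusted p under 0.05. Leaving out the LPC or the dantrolene library of isolation 2 ended each call of this paragraph.

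Other function list members called below additivity were PDGFD (-1.78) among growth factors, ADAM10 (-1.77) among matrix proteases, RBMS3 (-1.86) among YAP and TEAD targets, CHORDC1 (-1.83) among chaperones, and NR1D2 (-1.63) among clock genes. Each was the 1 gene called below in its list, 3.12% to 5.88% of the members against 4.49% of all genes. With the block their adjusted p-values were 0.0692, 0.0716, 0.0798, 0.0742, and 0.0945, and none was called without the LPC or the dantrolene library of isolation 2. In all, 83 of the 593 genes below additivity and 4 of the 21 above it belonged to a function list. Of these 4, 1 was in the growth factor list and 1 in the matrix protease list. The immediate early genes (28 tested), retinoid genes (19), and TXNIP and related arrestins (9) gave 0 calls. At an unadjusted p under 0.05 they had 2, 2, and 1 genes above and 0, 0, and 1 below.

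In 27 of the 593 genes (4.55%) the combination lay more than 0.5 (log2) under both single agents, a share near the 3.37% of all genes tested, so it is given as a description of these genes only. Of the genes named above these were NEXN, SEMA3C, ASPN, KIF20B, CALD1, PDGFD, ESM1, and SC5D, and the rest, picked out after their values were seen, included SEMA3D, ECM2, and ITGA1. PDGFD, a ligand of the PDGF beta receptor, measured 14.2, 5.55, and 11.7 CPM with vehicle, 10.6, 17.0, and 21.7 CPM with LPC, 14.8, 9.26, and 7.64 CPM with dantrolene, and 6.10, 4.35, and 3.91 CPM with LPC + dantrolene. The combination lay below every LPC and dantrolene library and, but for the vehicle of isolation 2, below vehicle. The difference between LPC + dantrolene and vehicle for this gene was -1.13, and that of LPC with dantrolene present was -1.14 ± 0.37. ESM1, an endothelial and HIF-responsive proteoglycan, measured 11.7, 14.2, and 13.8 CPM with vehicle, 24.2, 22.3, and 43.6 CPM with LPC, 6.95, 17.3, and 7.86 CPM with dantrolene, and 12.2, 3.73, and 5.32 CPM with the combination. Its LPC libraries were the highest, and its interaction had an adjusted p of 0.0294, and of 0.112 with the block.

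Above additivity, 21 genes were called, and 14 of them had a group with 0 counts in all 3 libraries, which was the dantrolene group in 13 of them. Only 6 had a group mean of 5 CPM or more. LCN2, lipocalin 2, which binds iron-carrying siderophores and rises in inflammation, had the smallest p of the genes with counts in every group (chr1:268609975-268614651). It measured 33.3, 15.6, and 13.5 CPM with vehicle, 6.92, 16.9, and 5.66 CPM with LPC, 33.7, 10.1, and 21.4 CPM with dantrolene, and 15.3, 35.3, and 84.7 CPM with LPC + dantrolene. The groups overlapped, with interactions of 1.12, 1.68, and 3.22 in the isolations. The estimate was 2.14 ± 0.57 (edgeR adjusted p = 0.0127), LPC without dantrolene gave -1.08 (adjusted p = 0.0899), and LPC with dantrolene gave 1.06 ± 0.40.

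TREX1, the exonuclease that clears cytosolic DNA, had the clearest LPC effect of this group (chr13:31177604-31180764). Its counts per library were 74, 49, and 71 with vehicle, 7, 19, and 3 with LPC, 92, 23, and 60 with dantrolene, and 37, 67, and 81 with LPC + dantrolene. All LPC libraries lay below all vehicle libraries and all combination libraries, at a mean of 0.515 ± 0.459 CPM against 3.51 ± 0.633 CPM and 3.39 ± 1.25 CPM (SD, n = 3). LPC without dantrolene gave -2.76 ± 0.61 (edgeR adjusted p = 0.000556) and the interaction was 2.92 ± 0.81 (adjusted p = 0.0181). CA12, a membrane carbonic anhydrase, measured 4.82, 8.18, and 2.499 CPM with vehicle, 2.56, 1.52, and 2.21 CPM with LPC, 2.96, 4.23, and 5.35 CPM with dantrolene, and 3.74, 10.9, and 9.48 CPM with both. All its combination libraries lay above all its LPC libraries, and the interaction was 2.23 ± 0.62 (adjusted p = 0.0187).

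NAV2, a neuron navigator that binds microtubules, and SOGA1 also had counts in every group, as did TENM4, picked out after its values were seen, and 1 gene without a symbol. SOGA1 measured 50.4, 33.5, and 28.3 CPM with vehicle, 22.4, 10.7, and 23.8 CPM with LPC, 32.1, 24.5, and 26.7 CPM with dantrolene, and 35.0, 45.4, and 41.3 CPM with LPC + dantrolene, so that combination libraries lay above all LPC and dantrolene libraries. The interaction was 1.53 ± 0.48 for SOGA1 (edgeR adjusted p = 0.0429) and 1.77 ± 0.54 for NAV2 (adjusted p = 0.0394). With the isolation as a block, LCN2, TREX1, CA12, NAV2, and SOGA1 gave adjusted p-values of 0.0918, 0.0814, 0.0944, 0.114, and 0.0871. In the same order DESeq2 gave adjusted p-values of 0.33, 0.0418, 0.0481, 0.133, and 0.0492, and on total counts alone none of these genes was called. LCN2, NAV2, and SOGA1 lost their call without the LPCDAN library of isolation 3, and CA12 without that of isolation 2. TREX1 lost its call without any 1 of the LPC libraries. Over all alternatives LCN2, CA12, NAV2, and SOGA1 lost theirs in 11, 11, 13, and 15 of 22, and TREX1 in 10 of 21. Without the LPC library of isolation 2 no gene was called above additivity.

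The remaining 7 of the 12 named genes above additivity were near the floor. NCMAP, a myelin-associated protein, had 17, 43, and 2 counts with vehicle, 0 in all LPC and all dantrolene libraries, and 0, 36, and 9 with LPC + dantrolene. It was the named gene of this direction that stayed called under the block (edgeR adjusted p = 0.0214), and its combination library of isolation 1 was at 0. TIMP4, an inhibitor of metalloproteinases, had 35, 18, and 33 counts with vehicle, 5, 11, and 0 with LPC, 0 with dantrolene, and 5, 8, and 0 with both. HSPB3, LY6G6C, ARHGAP25, and NGFR were likewise at 0 counts in all 3 dantrolene libraries, and SNORA62, a small nucleolar RNA, in all 3 LPC libraries. NGFR, the p75 neurotrophin receptor, rested on the vehicle library of isolation 3 with 100 counts, and its estimate was -0.36 without that library. HSPB3 had 18, 0, and 0 counts with LPC + dantrolene, so its call there rests on the library of isolation 1. Against a group at 0 a fitted fold has no size, and none is given for these genes.

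The values closest to the threshold were those of SNX4 (-1.59, edgeR adjusted p = 0.0499) just inside and DZIP3 (-2.91, adjusted p = 0.050004) just outside below additivity. Above it they were those of CRP (adjusted p = 0.0469) and GABRE (adjusted p = 0.0531), both at 0 in every dantrolene library.

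Genes with the strongest response to a single agent did not all depart from additivity. CYP1B1, a cytochrome P450 induced through the aryl hydrocarbon receptor, measured 22.8 ± 17.9 CPM with vehicle (SD, n = 3), 36.9 ± 20.7 CPM with LPC, 1199 ± 647 CPM with dantrolene, and 1274 ± 1090 CPM with both. Its interaction was -0.61 (95% interval -1.79 to 0.58, edgeR adjusted p = 0.677). CYP1A1, of the same family, gave 0.36 (interval -1.32 to 2.03, adjusted p = 0.863). PDK4, which switches off pyruvate oxidation, was raised by LPC with dantrolene present (2.77 ± 0.46, adjusted p = 0.000272) and gave an interaction of -0.62 (interval -1.87 to 0.62, adjusted p = 0.682). These intervals do not show additivity, and for each of these genes they leave room for departures of more than 1 on the log2 scale in at least 1 direction.

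ANGPTL4, a secreted inhibitor of lipoprotein lipase and a PPAR target, and CYP26B1, which degrades retinoic acid, were positive in every isolation without passing. ANGPTL4 measured 20.7, 51.2, and 33.6 CPM with vehicle, 122.9, 124, and 85.7 CPM with LPC, 10.9, 18.7, and 23.6 CPM with dantrolene, and 121, 145, and 115 CPM with LPC + dantrolene. LPC raised it by 1.66 without and by 2.84 with dantrolene, the latter 1 of the 3 called LPC effects in the presence of dantrolene, and the interaction was 1.18 (95% interval 0.25 to 2.11, edgeR adjusted p = 0.160). CYP26B1 measured 5.53, 6.60, and 7.38 CPM with vehicle, 7.79, 4.02, and 4.42 CPM with LPC, 0.931, 0.914, and 1.47 CPM with dantrolene, and 5.47, 2.49, and 2.66 CPM with both. All dantrolene libraries lay below all other libraries, and the interactions of 1.94, 2.05, and 1.53 in the isolations were alike (fit 1.94, interval 0.69 to 3.20, adjusted p = 0.0568). RUNX2 and SOX9, regulators of bone and cartilage fate, gave 0.59 (interval -0.35 to 1.53, adjusted p = 0.618) and 0.26 (interval -0.69 to 1.21, adjusted p = 0.820). HDAC9, a histone deacetylase, gave -1.58 (adjusted p = 0.112), and BCL3, a modulator of NF-kB, gave 1.21 (adjusted p = 0.156).

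How many genes were called depended on single libraries, most on the LPC and dantrolene libraries of isolation 2, and on isolations 2 and 3 as a whole. Leaving out 1 library at a time, the genes called below additivity ranged from 4 to 889. There were 4 without the LPC library of isolation 2, 31 without its dantrolene library, and 889 without the LPCDAN library of isolation 3. Without the vehicle library of isolation 2 there were 217, and without the LPC library of isolation 1 there were 256. Leaving out the LPCDAN library of isolation 2, which stood apart, gave 511, of which 509 were among the 593. The counts had been adjusted for batch with that library included. This fit therefore cannot show what the calls would be without its part in the adjustment. All 593 genes kept a negative estimate in each of these fits, which share most of the libraries that chose them. Leaving out a whole isolation, an alternative added after the data were seen, gave 382, 33, and 30 genes below without isolations 1, 2, and 3, and again all 593 estimates were negative. Of the genes named above, TGFBR1, SKIL, IL6ST, ROCK1, CALD1, and ASPN were among those that lost their call without isolation 3. KTN1, TRIP11, and SMC3 were among those that kept it, but they lost it without isolation 2, and without its LPC or its dantrolene library alone. Above additivity the counts ran from 0 without the LPC library of isolation 2 to 48 without the LPCDAN library of isolation 3, and they were 1, 9, and 5 without isolations 1, 2, and 3.

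**Figure D5:**
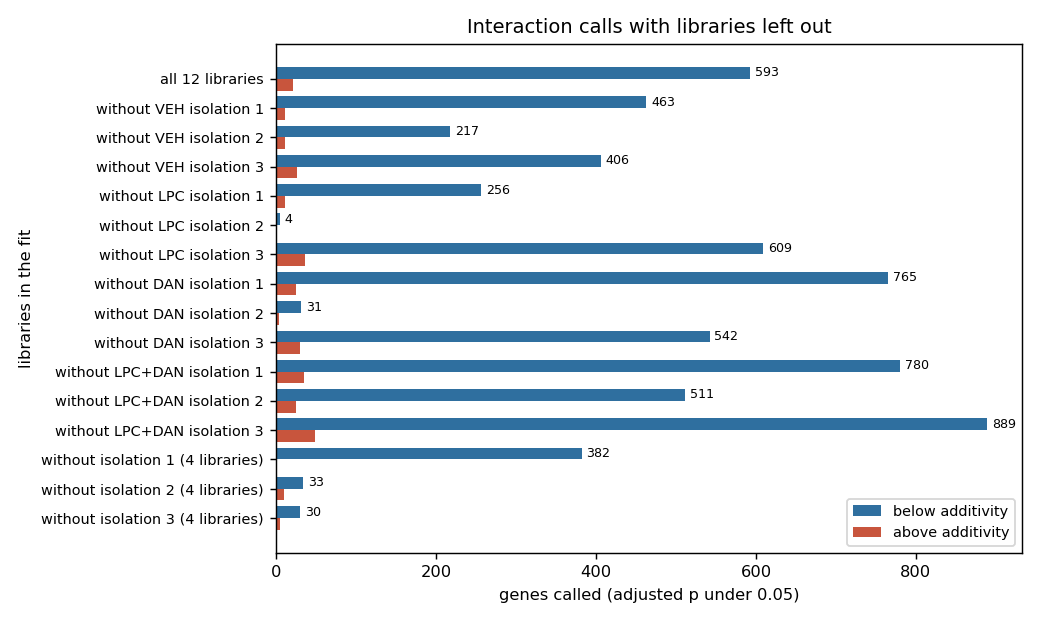
Number of genes called below (blue) and above (red) additivity on the x axis, for the fit of all 12 libraries, each library left out, and each isolation of 4 libraries left out (y axis). The counts below additivity fall from 593 to 4 without the LPC library of isolation 2 and to 31 without its dantrolene library.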

How the data were processed

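Counts per gene (whole numbers, 31908 genes) of 12 paVIC libraries were analysed. The authors aligned the reads, adjusted the counts for batch effects with ComBat, and deposited the adjusted counts without scaling for depth. The batch was taken here to be the isolation. The methods name STAR, and the submitters' processing notes name HISAT2 2.0.5, R 4.1.1, DESeq2 1.32.0, and build Sscrofa11.1. Use of strand is not given in the sources used here, so overlapping or antisense genes may share reads. The adjustment ties the libraries of an isolation to a common mean, so 1 outlying library shifts its isolation, and the tests ignore the degrees of freedom it spent, which can leave adjusted p-values smaller than they should be. Tables of the authors' own comparisons (mean signal, log2 fold changes, errors, scores, p-values) were not used.

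The 13216 genes kept by filterByExpr over the groups were fitted with edgeR 4.0.16 in R 4.3.3 (TMM scaling, quasi-likelihood, group as the only term), and the contrast was (LPCDAN - DAN) - (LPC - VEH). A gene was called if its Benjamini-Hochberg adjusted p lay under 0.05. The step was tested on simulated data without single-agent effects, batches, batch adjustment, or an outlying library. That test therefore does not give the error rate of the calls in these data. CPM are TMM-scaled, log2 CPM used a prior count of 2, and intervals are 95% intervals of the fit. The alternatives were DESeq2 1.42.0, RLE factors, total counts, other filters (none, or 10 counts in each sample), the isolation block, a threshold of 0.1, linear CPM, single libraries left out, and, added after seeing the data, whole isolations left out and LPCDAN libraries left out of their group mean.

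The labels give replicate numbers, and the methods describe experiments on separate isolations and different days. Neither ties a replicate number to an isolation, so pairing the samples by these numbers was an assumption. The isolation block, the values by isolation, and the fits without a whole isolation rest on this assumption. Deviations from group means correlated at a median of -0.152 within and 0.108 across isolations, which the ComBat adjustment fixes. Members, lists, and tests were chosen with earlier results of these data known. Named were the 12 genes with a symbol and the smallest p among those called in each direction, every called list member, the 3 members with the smallest p in each list, and genes of the study's RNA sequencing results, of which not all are printed. PDK4, TENM4, SNX4, DZIP3, CRP, and GABRE were chosen after their values were seen. Of the genes tested, 10923 had symbols in the count table, 572 took theirs from a name table, and 1721 stayed without. Coordinates and spans are those of RefSeq genes with the same symbol.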

Additional observations from a re-analysis of the deposited data

Results flagged for a closer look

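The effect of LPC differed between cells without and with dantrolene, by the test of the interaction, in 593 genes below additivity and in 21 genes above it, which is what singled these counts out. They are not independent of each other, since they come from the same contrast. Isolation 2 carried the largest departure in 590 of the 593 genes.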

How the results depend on the processing

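Genes above additivity numbered 21, and 2 on total counts alone, 52 without a filter, 3 with the isolation as a replicate block, 11 with DESeq2, and 48 at an adjusted p under 0.1. Leaving out isolations 1, 2, and 3 gave 1, 9, and 5, and leaving out single libraries gave 0 to 48. Genes below numbered 593, and 232 on total counts alone, 277 with the replicate block, and 382, 33, and 30 without isolations 1, 2, and 3, with 4 to 889 on leaving out single libraries. DESeq2 called 408 below, 400 of them among the 593. LPC without dantrolene gave 1148 called genes, 610, 1861, and 229 without isolations 1, 2, and 3, and 687 to 1692 without single libraries. LPC with dantrolene gave 3, and 1 on total counts, 6 without a filter, 1 with at least 10 counts in every sample, 1, 19, and 1 without the isolations, and 1 to 6 without single libraries. Dantrolene without LPC gave 1163, 750 without isolation 1, 95 without isolation 3, and 429 to 1799 without single libraries. Dantrolene with LPC gave 67, and 7 on total counts, 19 with the replicate block, 110 at an adjusted p under 0.1, 14, 241, and 6 without the isolations, and 9 to 140 without single libraries.

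Direction turned, among the genes named, for NGFR (-0.36 to 8.77 without single libraries, -0.33 without isolation 3), CYP1A1 (-0.33 to 5.40, and -0.47 without isolation 2), ACTA2 (-0.34 to 0.83, and -0.34 without isolation 2), SOX9 (-0.038 to 0.64), RYR3 (-0.43 to 0.080, and 0.022 without isolation 2), and PDK4 (-1.11 to 0.11, and 0.45 without isolation 2). CYP1B1 was 60.8 CPM above the sum on the linear scale. Of these NGFR alone had been called. The cause of these changes was not tested. Every estimate of the 593 genes below additivity that an alternative fit gave kept its sign, in fits that share most of the libraries that chose these genes (576 were fitted with at least 10 counts in every sample, and all 593 elsewhere).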
